A study of Mus musculus with 4 samples.

Results

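Potassium channel subunit genes were examined in 2 epithelia taken from fetal mouse kidney by laser capture. Members were all genes whose symbol in the platform table begins with Kcn, followed by lower-case letters and ending in a number, except Kcnj1. They comprised 79 of the 18193 genes with a symbol of their own, read by 156 of the 45037 probe sets left without controls. They were read on 1 array of cortical collecting duct, a derivative of the ureteric bud, numbered replicate 3. Another 3 arrays, numbered 1 to 3, held the loop of Henle anlage, from which the thick ascending limb arises. All were wild-type CD-1 mice, an outbred stock, at E15.5 (Theiler stage 23). Each array held RNA pooled from about 50 sections of 5 kidneys and amplified over 2 rounds. The comparison asks which channel genes differ in signal between these epithelia at this stage. The p-values measure the spread among the 3 anlage arrays, and the single collecting duct array is taken to vary alike. The labels do not say whether pools shared kidneys or litters, so that spread may be technical.

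Potassium channels let potassium ions pass down their gradient and so set the membrane voltage that drives other transport. In the mature thick ascending limb, apical channels return potassium to the tubule fluid and keep the sodium-potassium-chloride cotransporter supplied, while in the collecting duct they secrete potassium in exchange for the sodium taken up by the epithelial sodium channel. The family holds inward rectifiers (Kcnj), two-pore domain channels that carry background currents (Kcnk), voltage-gated channels, calcium- or sodium-activated channels, and auxiliary subunits that form no pore of their own.

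The members furthest apart in the comparison were Kcnj5, a G protein-gated inward rectifier known from heart atrium and adrenal cortex, and Kcnip4, a calcium-binding protein that modulates voltage-gated channels of the Kcnd group. Kcnj5 had the most negative and Kcnip4 the most positive difference among the 41 members tested, and both lie in the plot of all genes at the edge of the family. Their promoter windows, 250 bases before to 50 after a transcript start, are shown as the regulatory sequence next to each gene, from RefSeq on build GRCm38.p6. The window of Kcnj5 lies at chr9:32344295-32344594 on the minus strand, and that of Kcnip4 at chr5:49285610-49285909 on the minus strand, the first of the 2 windows listed for that gene. Capitals mark matches, on either strand, to the GC box GGGCGG in Kcnj5 and to the GATA core AGATAA in Kcnip4.
Kcnj5: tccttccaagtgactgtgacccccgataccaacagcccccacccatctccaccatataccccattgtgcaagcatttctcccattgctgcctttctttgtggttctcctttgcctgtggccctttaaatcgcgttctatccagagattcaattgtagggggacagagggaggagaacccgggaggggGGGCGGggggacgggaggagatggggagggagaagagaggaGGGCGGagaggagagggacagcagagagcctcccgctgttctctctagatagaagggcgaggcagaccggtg
Kcnip4: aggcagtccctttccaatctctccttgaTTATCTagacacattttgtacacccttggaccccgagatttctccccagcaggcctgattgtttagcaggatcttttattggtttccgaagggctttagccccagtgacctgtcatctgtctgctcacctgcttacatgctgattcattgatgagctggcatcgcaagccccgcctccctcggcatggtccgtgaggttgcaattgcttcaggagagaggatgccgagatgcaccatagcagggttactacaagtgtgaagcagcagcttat
Kcnj5 held 2 GC boxes and no match to the other motifs searched, and the Kcnip4 window held 1 GATA core. The other window of Kcnip4 held 0 matches. Of 85 windows of the 60 member genes in the table, 48.2% held a GC box, against 35.7% of all 32851 windows. The TATA box TATAAA stood in 5.88% of member windows against 13.6% of all windows, the GATA core in 4.71% against 11.2%, and the half-site GTTAAT of the HNF1 factors in 4.71% against 7.1%. These are letter matches, and binding was not measured.

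Segment markers followed the labels, but the lists were chosen with earlier results of these data known, so they are no independent check. All 15 tested collecting duct and ureteric stalk markers exceeded the anlage mean in the collecting duct, 13 of them above every anlage array. All 12 loop and thick limb markers lay below every anlage array in the collecting duct. Among all 12642 tested genes, 17.3% lay above and 24.3% below every anlage array in the collecting duct, and 6940 were under the anlage mean. The anlage arrays were not alike. Summed signal of the loop list was 18468 in the collecting duct against 156402, 49932 and 112971 in anlage arrays 1, 2 and 3. That of the collecting duct list was 164277 against 30394, 64836 and 21398. That of 5 podocyte markers was 9059 against 9184, 27288 and 9105. Among anlage arrays, array 2 was thus lowest for the loop list and highest for the other 2. A measure of RNA quality varied within the anlage, and whether this arose before or during the amplification was not tested. The Gapdh control probe sets had a 3'/5' ratio, higher for shortened RNA, of 12.05 in the collecting duct and of 10.25, 54.08 and 26.02 in anlage arrays 1, 2 and 3. Markers of other cells also differed between arrays. The summed signal of 9 mural and smooth muscle markers was 16007 in the collecting duct against 23820, 33318 and 105334 in the same anlage order, with 7 of 8 tested markers under the anlage mean and 5 below all 3 arrays. That of 10 endothelial markers was 5459 against 8719, 17634 and 20049, with 8 of 8 tested under the mean and 6 below all 3. That of 9 proximal tubule markers was 4258 against 6543, 9772 and 8112, with 9 of 9 under the mean and 5 below all 3. For 8 macrophage and leukocyte markers it was 2779 against 5651, 6308 and 4253, with 5 of 5 tested under the mean and 4 below all 3. For 8 interstitial stroma markers it was 126687 against 117746, 119303 and 269237, with 6 of 8 under the mean and 0 below all 3. The part of these marker differences in the member values was not tested. In bulk samples of this kind, fewer cells of a type and less RNA per cell cannot be told apart.

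The 3 most negative differences were those of the inward rectifiers Kcnj5, Kcnj15 and Kcnj11, the most positive that of Kcnip4, and no member passed the adjusted threshold. Values below are log2(signal + 109.6) after quantile normalization, and a difference is the collecting duct value minus the anlage mean on that scale. Genes entered the test with a mean of at least 8.416, a filter set at the 40th percentile over probe sets. It kept 41 of the 79 members (51.9%), against 69.5% of all genes. Of the 41, 26 had both the collecting duct value and the anlage mean at or above it, 10 passed through the anlage alone and 5 through the collecting duct alone, so counts over the tested members are descriptions.

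In the limma fit over 12642 genes, 0 of the 41 tested members were called higher and 0 lower in the collecting duct at an adjusted p under 0.05, as were 0% and 0% of all genes. Each member had an adjusted p of 0.9999. Before adjustment, 1 member, Kcnip4, was on the higher side with p under 0.05, against 1.18% of all genes, and 3 members, Kcnj5, Kcnj15 and Kcnj11, on the lower side, against 2.23%. Kcnj5 and Kcnj15 passed the filter only through the anlage and Kcnip4 only through the collecting duct, the side on which each was high, so these counts support nothing about the family. The difference was positive for 15 and negative for 26 tested members, against 5702 and 6940 of all tested genes. The collecting duct value lay above all 3 anlage arrays for 7 tested members (17.1%), against 17.3% of all tested genes, and below all 3 for 14 (34.1%), against 24.3%. Over all 79 members without the filter the counts were 16 above (20.3%), against 18.2% of all genes, and 24 below (30.4%), against 25.2%. The median difference was -0.17 over the tested members and -0.07 over all tested genes, and -0.08 against -0.07 without the filter. Across the 79 members, Pearson r of the collecting duct was 0.742 with anlage array 1, 0.718 with array 2 and 0.648 with array 3, and r between anlage arrays was 0.656 to 0.772. Over all genes r was 0.935, 0.917 and 0.935 with the same arrays, and 0.887 to 0.941 between anlage arrays. The member correlations describe genes that share low signal, and genes are not independent replicates.

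**Figure D1:**
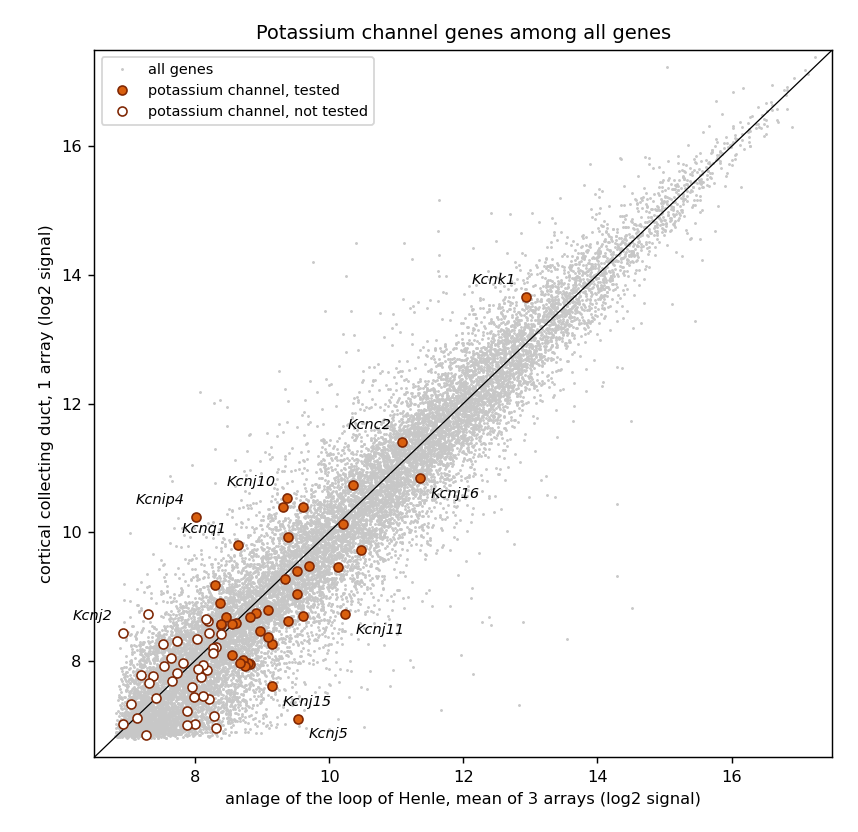
Log2 signal in the 1 cortical collecting duct array (vertical axis) against the mean of the 3 anlage arrays (horizontal axis). Grey points are all 18193 genes, filled circles the 41 tested potassium channel genes, open circles the 38 not tested, and the line marks equal values. Kcnip4 stands above the line at 10.24 against 8.01 and Kcnj5 below it at 7.10 against 9.53, while most members crowd at the dim end.

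Among inward rectifiers, 9 of 14 genes were tested. The collecting duct value was lower than the anlage mean for 8 and higher for 1, with 1 above (all genes 17.3%) and 5 below (all genes 24.3%) all anlage arrays and a median difference of -0.71. Of the 5 below, Kcnj5, Kcnj15, Kcnj14 and Kcnj3 passed the filter only through the anlage. Over all 14 genes 4 lay above (all genes 18.2% without the filter) and 6 below (25.2%), with a median of -0.24. None passed the adjusted threshold.

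Kcnj5 stood at 7.10 in the collecting duct array and at 9.35, 9.66 and 9.58 in anlage arrays 1, 2 and 3. In deposited signal these were 26.47 against 741.07, 457.98 and 606.13. The anlage arrays were close together, and the collecting duct array lay far below all 3. The difference was -2.43 ± 0.50 (SE, 95% interval -3.65 to -1.21), 5.39-fold lower on this scale. Because the collecting duct value was dim, the size depends on the constant added before the log: it was -3.58 with a smaller constant and -1.33 with a larger one. Leaving out any 1 anlage array gave -2.59 to -2.33, and the lowest adjusted p under any setting tried was 0.3015. Its other probe set was dim on every array, at 7.81 against 8.13, 7.97 and 7.62, and differed by -0.09.

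Kcnj15, an inward rectifier known from proximal tubule, stood at 7.60 in the collecting duct array and at 9.12, 9.46 and 8.87 in the anlage arrays. The difference was -1.55 ± 0.52 (SE), and the collecting duct array was again the lowest of the 4. Its other probe sets, both below the filter, differed by -0.27 and 0.70, so the probe sets did not share a sign. Kcnj11, the pore of the ATP-sensitive channel of pancreatic beta cells, had 8.72 in the collecting duct, compared with 10.41, 10.24 and 10.06 in the anlage arrays. The difference was -1.52 ± 0.51 (SE), the groups did not overlap, and its dim second probe set differed by -0.90. Abcc8, the sulfonylurea receptor that pairs with Kcnj11 in beta cells, was below the filter, at 7.97 against 8.19, 8.46 and 7.64.

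Kcnj10 and Kcnj16 form the basolateral channel of mature distal tubule cells. Kcnj10 stood at 10.52 in the collecting duct array and at 10.46, 8.92 and 8.72 in the anlage arrays. The collecting duct array was highest, but anlage array 1 was almost equal to it and the other 2 lay well below. The difference was 1.16 ± 0.81 (SE, 95% interval -0.81 to 3.12, which includes 0), or 1.84 without anlage array 1. The SD among the anlage arrays was 0.95 (n = 3). Within the anlage, the array with the high Kcnj10 value was the one with the lowest Gapdh ratio, and the part of RNA quality in this was not tested.

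Kcnj16 stood at 10.84 in the collecting duct array and at 11.71, 10.64 and 11.69 in the anlage arrays, so the groups overlapped (difference -0.51 ± 0.65, SE). Its second probe set, also past the filter, gave 11.25 against 11.35, 9.70 and 10.94, a difference of 0.59. The probe sets therefore disagreed in sign, and their mean differed by 0.04.

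Kcnj8, the pore of the ATP-sensitive channel of vascular smooth muscle and pericytes, stood at 9.40 in the collecting duct array and at 8.95, 9.61 and 10.03 in the anlage arrays. The groups overlapped, and the difference of -0.13 ± 0.62 (SE) turned to 0.12 without anlage array 3. Its partner subunit Abcc9 had 8.31 against 8.70, 9.69 and 9.83. Both genes were highest in anlage array 3. Mural and smooth muscle markers averaged 9.82 in the collecting duct, against 10.16, 10.76 and 11.98, but did not share an order. Acta2, Tagln, Myh11, Rgs5 and Cnn1 were highest in array 3, Pdgfrb and Notch3 in array 2, and Cspg4 and Des in array 1. The part of mural cells in these values was not tested.

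The other tested inward rectifiers were Kcnj14, Kcnj3 and Kcnj6, the last 2 being G protein-gated channels known from neurons. Kcnj14 differed by -0.88 ± 0.67 (SE), with 8.27 in the collecting duct array close to 8.34 in anlage array 1, against 9.56 and 9.55 in arrays 2 and 3. Kcnj3, which pairs with Kcnj5 in the atrial channel, stood at 8.01 against 8.90, 8.72 and 8.52, below all 3 anlage arrays, and differed by -0.71 ± 0.50. Its other probe sets, all below the filter, differed by 0.92, 0.245 and -0.07, so they did not share a sign. Kcnj6 differed by -0.02 ± 0.57. Kcnj2, a strong inward rectifier of muscle and heart, was too dim on average to be tested. Its deposited signal was 249.42 in the collecting duct, against 16.82, 4.14 and 18.48 in the anlage arrays. The collecting duct value of 8.44 was thus just above the filter and the anlage values of 6.92, 6.87 and 6.99 far under it. Kcnj13, described in several transporting epithelia, was dim on all arrays, at 8.33 against 8.18, 8.03 and 7.87.

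Kcnj1, the apical channel of the thick limb that the choice of members leaves out, stood at 7.31 in the collecting duct array and at 13.89, 11.25 and 13.34 in the anlage arrays.

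**Figure D2:**
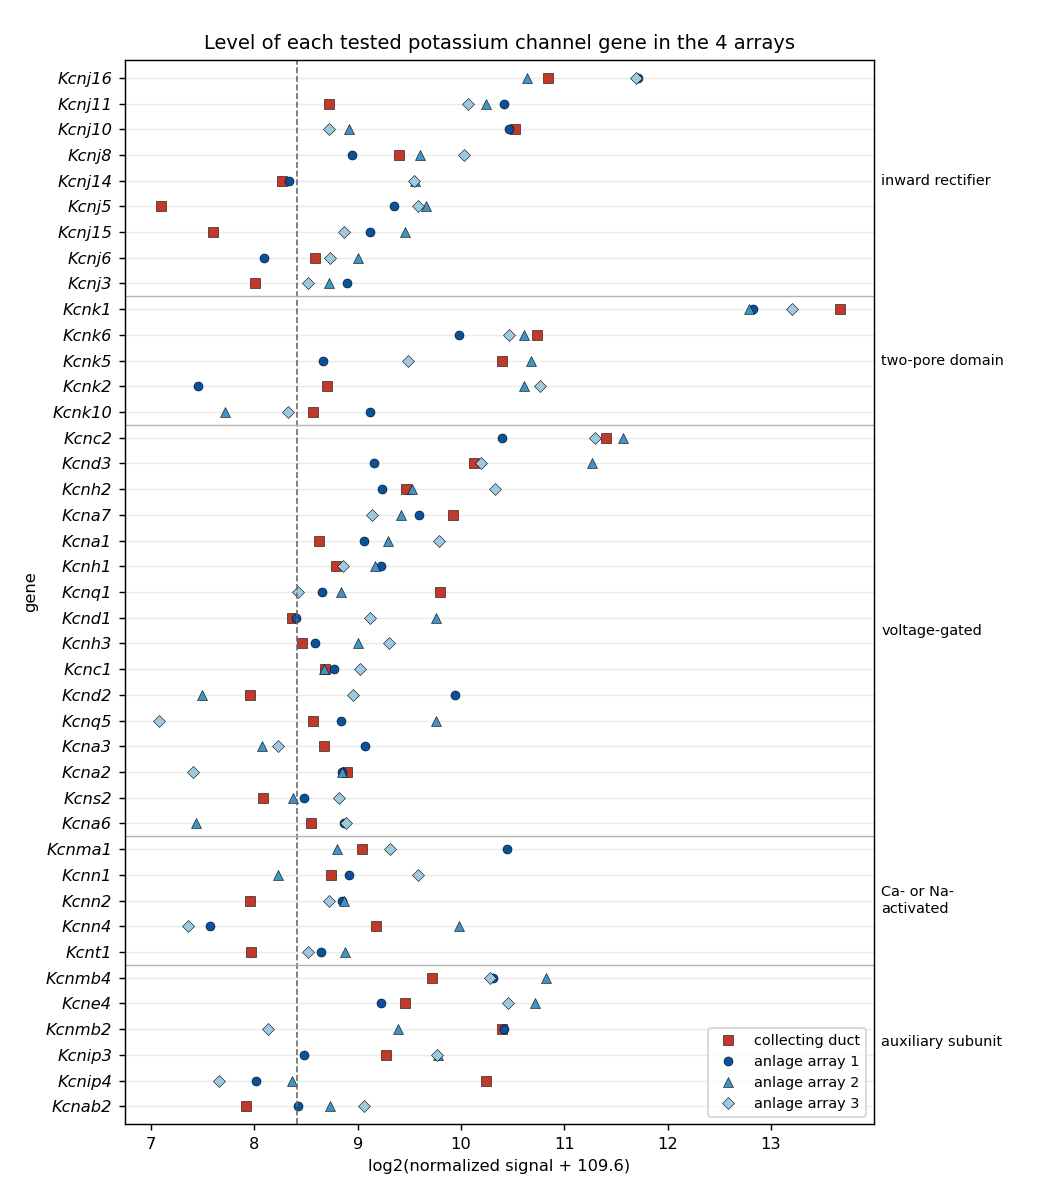
Level of the 41 tested potassium channel genes on the horizontal axis (log2 of normalized signal plus 109.6), by channel class. Red squares are the collecting duct array, blue symbols anlage arrays 1 to 3, and the dashed line the filter at 8.416. Red lies left of all blue symbols for Kcnj5, Kcnj15 and Kcnj11 and right of them for Kcnip4, Kcnq1 and Kcnk1. Genes are ordered by mean signal for display, which also depends on how well each probe set binds.

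Two-pore domain channels had values above the anlage mean in the collecting duct for 4 of 5 tested genes, of 12 in all. Of these 4, Kcnk10 passed the filter only through the collecting duct. Of the 5, 2 lay above all anlage arrays (all genes 17.3%) and 0 below (24.3%), and the median difference was 0.38. None passed the adjusted threshold, and over all 12 genes 5 lay above (all genes 18.2% without the filter) and 3 below (25.2%), with a median of 0.40.

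Kcnk1, a weakly rectifying background channel known from kidney tubules, stood at 13.66 in the collecting duct array and at 12.83, 12.79 and 13.20 in the anlage arrays. Its collecting duct value was the highest of the 4. The difference of 0.72 ± 0.46 (SE, 95% interval -0.40 to 1.85) was seen also in its second probe set, at 10.81 against 10.84, 9.67 and 10.13 (difference 0.60), where anlage array 1 reached the collecting duct value. With arrays scaled to a common median the difference of the first probe set was 0.35 (unadjusted p = 0.7864 and adjusted p = 1 in limma). Kcnk6, a relative of Kcnk1, stood at 10.74 against 9.98, 10.61 and 10.47 and differed by 0.38 ± 0.55 (SE), or 0.21 with arrays scaled to a common median. Its collecting duct value was above all 3 anlage arrays by a small margin.

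Kcnk5, an alkaline-activated channel linked to bicarbonate handling in proximal tubule, stood at 10.40 in the collecting duct array and at 8.67, 10.68 and 9.48 in the anlage arrays. The groups overlapped, and the difference was 0.79 ± 0.84 (SE), or 0.35 without anlage array 1 and 1.24 without array 2. Kcnk2, a channel gated by stretch and lipids, had 8.70 in the collecting duct, compared with 7.45, 10.61 and 10.76 in the anlage arrays. The anlage arrays split around the collecting duct value, with an SD of 1.87 (n = 3), the highest among tested members. The difference of -0.91 ± 1.34 (SE) was -2.14 without anlage array 1 and -0.32 without array 3. Endothelial markers averaged 8.79 in the collecting duct, compared with 9.54, 10.46 and 10.42 in the anlage arrays. Like Kcnk2 they were higher in anlage arrays 2 and 3 than in array 1, but unlike Kcnk2 they were lowest in the collecting duct, and their part was not tested.

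Kcnk10 differed by 0.18 ± 0.67 (SE). Kcnk3, an acid-sensitive channel known from pulmonary artery muscle, was below the filter, with 7.01 in the collecting duct, compared with 7.33, 7.41 and 9.26 in the anlage arrays. Only anlage array 3, the array with the highest summed mural marker signal, was above the filter. The other probe sets of Kcnk3 read 7.11 and 7.05 on that array, and the part of mural cells was not tested. Without that array another probe set of Kcnk3 was the brightest, with a difference of 0.68 in place of -0.99. Kcnk13 was dim throughout, at 7.46 against 8.46, 8.09 and 7.81. Kcnk12, named after its values were seen, stood at 8.72 against 7.20, 7.54 and 7.14 and was not tested.

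Voltage-gated pore-forming subunits made up 31 of the 79 genes, and 16 were tested. Of these 7 had a higher and 9 a lower value in the collecting duct than the anlage mean. The collecting duct lay above all anlage arrays for 3 (all genes 17.3%) and below them for 5 (24.3%), with a median difference of -0.11. Among the lower, Kcnd1, Kcnd2 and Kcns2 passed the filter only through the anlage. Among the higher, Kcna2 and Kcna6 passed it only through the collecting duct. Over all 31 genes 4 lay above (all genes 18.2% without the filter) and 10 below (25.2%), with a median of -0.18. None passed the adjusted threshold.

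Kcnq1, a slowly activating channel of heart and of secretory and absorptive epithelia, stood at 9.80 in the collecting duct array and at 8.65, 8.84 and 8.42 in the anlage arrays. The anlage arrays were close together and the collecting duct array lay above all 3. The difference was 1.16 ± 0.51 (SE, 95% interval -0.08 to 2.39), 2.23-fold on this scale, from the only probe set of the gene. Its beta subunits Kcne1, Kcne2 and Kcne3 were all below the filter. Kcne1 stood at 8.05 against 7.86, 7.97 and 7.07, Kcne2 at 7.65 against 6.87, 8.11 and 6.97, and Kcne3 at 7.92 against 6.92, 7.54 and 8.15. Kcne4, an inhibitory partner of Kcnq1, was tested. Its values were 9.46 in the collecting duct, compared with 9.23, 10.71 and 10.45 in the anlage arrays, overlapping groups with a difference of -0.67 ± 0.73 (SE), or -1.22 without anlage array 1 and -0.35 without array 2.

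Kcnc2, a fast channel best known from interneurons, gave signal in all arrays, with 11.40 in the collecting duct, compared with 10.40, 11.56 and 11.29 in the anlage arrays. The groups overlapped (difference 0.32 ± 0.65, SE, and -0.03 without anlage array 1). Of the neuron and glia markers, 10 were on the array with a symbol of their own, and 7 of them were under 8.416 in the collecting duct array and 4 in the anlage mean. Their log2 values averaged 8.05 in the collecting duct, against 8.28, 8.40 and 8.80 in the anlage arrays.

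The Kcnd channels carry fast transient currents and are the partners of Kcnip4. Kcnd3 stood at 10.12 in the collecting duct array and at 9.16, 11.26 and 10.19 in the anlage arrays, a difference of -0.08 ± 0.86 (SE) that was 0.42 without anlage array 2. Kcnd1 stood at 8.36 against 8.40, 9.76 and 9.12 (-0.73 ± 0.66). Kcnd2 stood at 7.96 against 9.94, 7.50 and 8.95, a difference of -0.84, or -1.45 without anlage array 2. Its second probe set past the filter differed by 0.27. Without anlage array 1 that second probe set was the brightest of Kcnd2, and its difference was then -0.27. For Kcnd2 and Kcnd3 the groups overlapped, and for Kcnd1 the collecting duct value was lowest by a narrow margin.

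Kcnh2, the channel that ends the heart action potential, stood at 9.47 against 9.24, 9.52 and 10.33 and differed by -0.23 ± 0.62 (SE), or 0.09 without anlage array 3. Kcna7 was higher than all anlage arrays by a small margin, at 9.92 against 9.59, 9.42 and 9.14 (0.54 ± 0.52). Kcna1, a neuronal channel that also acts in distal convoluted tubule cells, stood at 8.62 against 9.06, 9.29 and 9.79, below all 3 anlage arrays (-0.76 ± 0.55), and its 4 probe sets all had negative differences, from -0.84 to -0.19. Kcna2 differed by 0.53 ± 0.73, with 8.90 against 8.85, 8.85 and 7.41, and by 0.05 without anlage array 3, the low one. No difference was taken without array 1 or 2. Of the 4 probe sets of Kcna2, 2 had positive and 2 negative differences, from -0.48 to 0.53.

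Of 8 calcium- or sodium-activated channel genes, 5 were tested. The collecting duct value was higher than the anlage mean for 1 and lower for 4, 0 above (all genes 17.3%) and 2 below (24.3%) all anlage arrays, with a median difference of -0.48. Both of those below, Kcnn2 and Kcnt1, passed the filter only through the anlage, and the 1 higher, Kcnn4, only through the collecting duct. Over all 8 genes 0 lay above (all genes 18.2% without the filter) and 2 below (25.2%), with a median of -0.10. None passed the adjusted threshold.

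Kcnma1 encodes the pore of the large-conductance channel through which the mature collecting duct secretes potassium at high flow. It stood at 9.04 in the collecting duct array and at 10.45, 8.80 and 9.31 in the anlage arrays, so the groups overlapped. The difference was -0.48 ± 0.75 (SE, 95% interval -2.31 to 1.34). It was -0.02 without anlage array 1 and -0.79 without array 2. Of its 5 probe sets, 3 passed the filter, and the other 2 of these differed by -1.59 and 0.13, one on each side of 0.

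Kcnn4, an intermediate-conductance channel of epithelia and blood cells, stood at 9.18 in the collecting duct array and at 7.57, 9.98 and 7.36 in the anlage arrays. Anlage array 2 was the highest of the 4, and the difference of 0.87 ± 1.08 (SE) was smaller than its error, and was 0.49 without anlage array 1 and 0.42 without array 3. Without array 2 no difference was taken, and the other anlage values, 7.57 and 7.36, lay below the collecting duct value. The second probe set of Kcnn4 was dim and differed by 0.73. Kcnn2, a small-conductance channel, stood at 7.95 against 8.85, 8.87 and 8.73. The anlage arrays agreed within an SD of 0.08 (n = 3), with the collecting duct array below them (-0.86 ± 0.48). Kcnt1, a sodium-activated channel, stood at 7.97 against 8.64, 8.87 and 8.52 and also lay below all 3 (-0.71 ± 0.49). All of these collecting duct values except those of Kcnma1 and Kcnn4 were under the filter.

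Auxiliary subunits were tested for 6 of 14 genes, with 2 higher and 4 lower than the anlage mean. The collecting duct lay above all anlage arrays for 1 (all genes 17.3%) and below them for 2 (24.3%), and the median difference was -0.37. The 1 above, Kcnip4, passed the filter only through the collecting duct, and Kcnab2, 1 of the 2 below, only through the anlage. Over all 14 genes 3 lay above (all genes 18.2% without the filter) and 3 below (25.2%), and the median had the other sign, at 0.15. None passed the adjusted threshold.

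Kcnip4 stood at 10.24 in the collecting duct array and at 8.02, 8.36 and 7.66 in the anlage arrays. In deposited signal these were 1193.07 against 216.47, 117.66 and 94.34. The collecting duct array was the only one above the filter. The difference was 2.23 ± 0.53 (SE, 95% interval 0.92 to 3.53), 4.68-fold higher on this scale, and leaving out any 1 anlage array gave 2.07 to 2.35. With the larger added constant it was 1.496 and with the smaller one 2.70, and the lowest adjusted p under any setting tried was 0.3229. The other 2 probe sets were below the filter and also had positive differences, of 0.65 and 0.49. Kcnip3, a relative that also binds DNA, showed no such difference, at 9.28 against 8.48, 9.77 and 9.77 (-0.07 ± 0.70), and its sign changed under 3 settings.

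The beta subunits of the large-conductance channel did not share a sign. Kcnmb2, which gives the channel inactivation, stood at 10.40 in the collecting duct array and at 10.42, 9.39 and 8.13 in the anlage arrays, again with anlage array 1 level with the collecting duct. Its difference of 1.09 ± 0.91 (SE) was -0.66 in its second probe set and 0.21 in the mean of both, and ran between 0.49 without anlage array 3 and 1.75 without array 1. Kcnmb4, the neuronal beta subunit that is also found in kidney, had 9.72 in the collecting duct, compared with 10.31, 10.82 and 10.28 in the anlage arrays, lower than all 3 (-0.75 ± 0.54). Kcnmb1, the smooth muscle beta subunit, was below the filter, at 8.21 against 7.71, 9.02 and 8.23. Kcnab2, a cytoplasmic beta subunit of Kcna channels, stood at 7.91 against 8.43, 8.73 and 9.06, below all 3 (-0.83 ± 0.52). Its second probe set, below the filter, differed by 0.22.

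**Figure D3:**
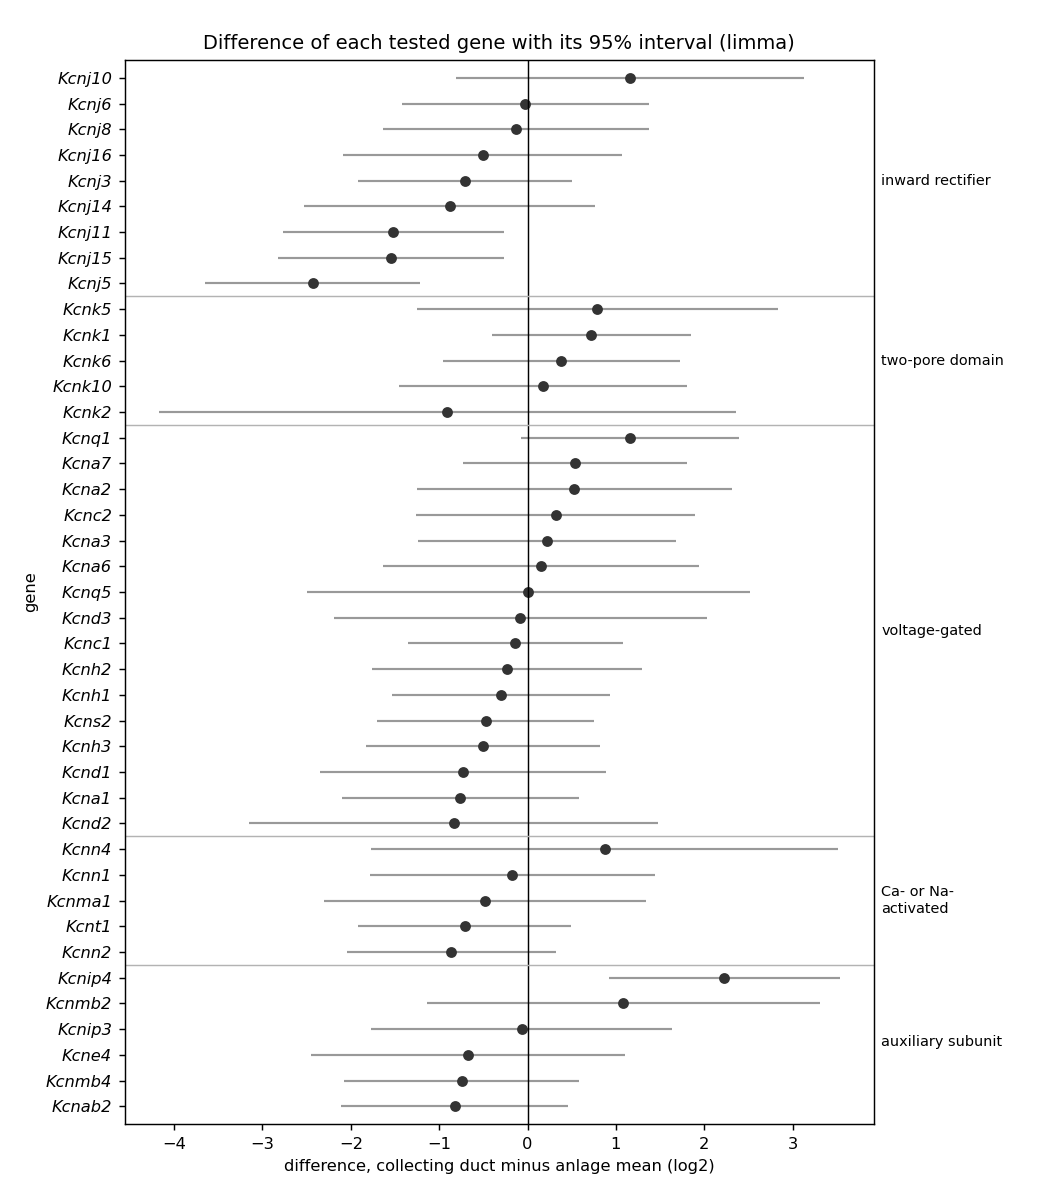
Difference of each tested potassium channel gene, collecting duct minus anlage mean on the log2 scale, with the 95% interval of the limma fit, by channel class. The interval leaves out 0 for Kcnj5, Kcnj15 and Kcnj11 on the negative side and for Kcnip4 on the positive side before adjustment, and each gene's adjusted p was 0.9999.

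Probe sets of 1 gene did not always agree. Of the 79 genes, 44 had several probe sets, up to 5, and for 10 more than 1 passed the filter. The passing probe sets shared a sign for 4 of these 10 (Kcnk1, Kcnd1, Kcnh1 and Kcnh3) and disagreed for 6 (Kcnj16, Kcnmb2, Kcnma1, Kcnd2, Kcnd3 and Kcnc1). Of Kcnh1 the probe sets differed by -0.30 and -1.46. Fitted each on its own among 22499 probe sets, 0 of the 52 member probe sets that passed were called in either direction, as were 0 of all probe sets.

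**Figure D4:**
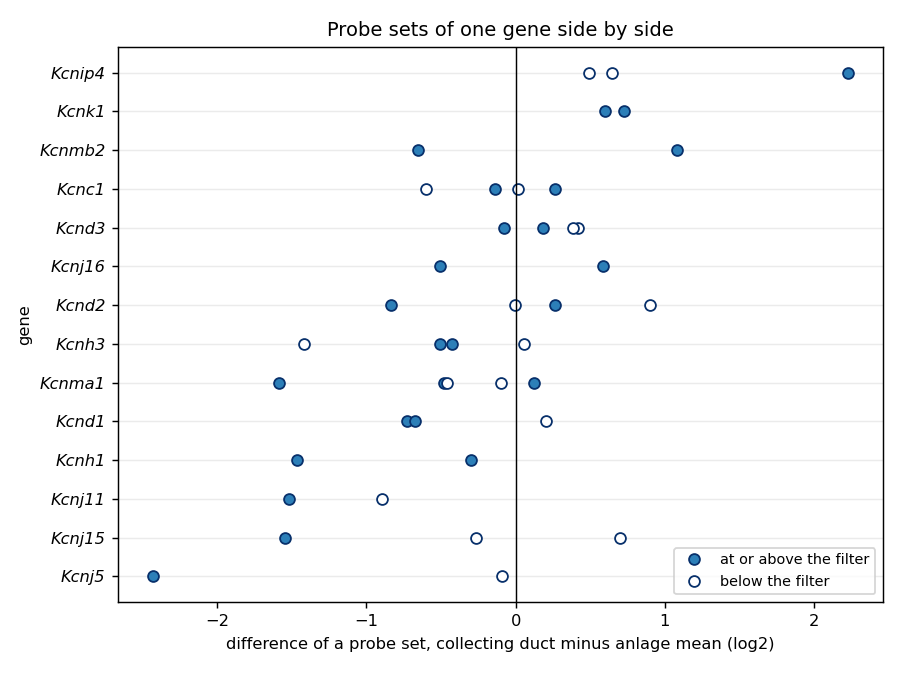
Difference of each probe set, collecting duct minus anlage mean (log2), for genes with more than 1 probe set past the filter and for Kcnj5, Kcnj15, Kcnj11 and Kcnip4. Filled circles passed the filter on dim signal and open circles did not. Filled circles lie on both sides of 0 for Kcnmb2, Kcnj16 and Kcnma1, and the pair of Kcnk1 lies at 0.60 and 0.72.

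Partners and regulators of potassium channels were listed apart from the members. Of 17 tested genes in this list, 9 had a higher and 8 a lower value than the anlage mean. Of these 17, 1 lay above (all genes 17.3%) and 4 below (24.3%) all anlage arrays, and 0 passed the adjusted threshold. The gene with the largest difference was Stk39, the kinase that activates sodium-coupled chloride cotransporters downstream of the Wnk kinases. It stood at 8.55 in the collecting duct array and at 12.51, 12.11 and 12.64 in the anlage arrays, a difference of -3.87 ± 0.53 (SE), with an unadjusted p of 0.000331 and an adjusted p of 0.9999 in limma. Wnk3 stood at 8.76 against 9.61, 10.99 and 9.56. The ubiquitin ligase gene Nedd4l had 14.34 in the collecting duct, compared with 14.77, 10.36 and 13.50 in the anlage arrays, where array 2 stood apart. Abcc9, described with Kcnj8, completes the 4 largest.

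Among 10 tested transport partners of these channels, 6 had a higher and 4 a lower value. Of these 10, 4 lay above (all genes 17.3%) and 4 below (24.3%) all anlage arrays, and 0 passed the adjusted threshold. Slc9a3, an apical sodium-proton exchanger, stood at 8.60 in the collecting duct array and at 13.36, 12.05 and 13.27 in the anlage arrays. The sodium channel subunit Scnn1g stood at 12.18 against 7.14, 9.65 and 7.43, and Scnn1b at 11.26 against 8.36, 9.19 and 8.79. The cotransporter Slc12a1 stood at 10.44 against 15.00, 13.25 and 14.62. The differences of these genes ran from -4.29 to 4.11, those of the potassium channel members from -2.43 to 2.23. Over all tested genes they ran from -5.69 to 4.44. The member range leaves out Kcnj1, which differed by -5.52, and the partner list holds segment markers such as Slc12a1 and Scnn1g. The ranges therefore depend on how the genes were chosen.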

How the data were processed

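The authors deposited linear intensity values per probe set, for which the submitters' processing notes name GCOS, version not given in the sources used here. The 4 arrays were quantile normalized and log2(signal + 109.6) was taken, the constant being the 25th percentile. Of 45101 probe sets, 64 controls were left out. Probe sets with 1 symbol (34945) were used, with the brightest per gene; those with several (932) or none (9160) were not tested. RefSeq gene numbers matched 34741. Detection calls were not used here. limma (version 3.58.1, R 4.3.3) with an intensity trend was run on 12642 genes, two-sided, with Benjamini-Hochberg adjustment. The fit had 2 residual degrees of freedom, from the anlage, and 4.04 prior degrees of freedom, and the single duct array is taken to vary as the anlage arrays do. The number of arrays limits the precision, and an exact permutation test could not go below 0.25. Members and lists were chosen with earlier results of these data known.

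Genes were named by rule: the 10 tested members with the largest difference in each direction, the 10 with the highest mean signal, a fixed set of 28 kidney-related genes, and up to 4 of each partner list. Kcna10, of the fixed set, is not analysed here. Kcnj3, Kcnj6, Kcnk10, Kcnk12, Kcnd1, Abcc8 and genes named only for their probe sets or the filter were chosen after their values were seen. They have no alternatives of their own. Alternatives changed the normalization, constant, filter, probe set choice and variance model, or left out 1 anlage array.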

Additional observations from a re-analysis of the deposited data

How the results depend on the processing

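Under all 12 alternatives 0 potassium channel genes passed an adjusted p of 0.05 in limma. Of 413 differences of 37 named members, 400 kept their sign. The collecting duct exceeded all 3 anlage values for 16 members and was under them for 24 with no filter on dim genes (all genes 18.2% and 25.2%), for 4 and 2 of 14 with the filter at the 60th percentile (17.7% and 22.8%), and was under them for 7 of 21 with probe sets averaged per gene (23.8%). Members at an unadjusted p under 0.05 were 3 higher with no filter, 0 higher and 1 lower at the 60th percentile, 1 lower with probe set means and 1 lower on the deposited signals. The median difference was 0.12 at the 60th percentile, where 14 members were tested. With 1 anlage array left out, 14 to 22 members lay below the arrays left: 22 of 39 without array 1 (all genes 47.5%), 19 of 38 without array 2 (30.5%) and 14 of 40 without array 3 (28.5%). Then 1 to 3 were higher and 2 to 5 lower at an unadjusted p under 0.05, and 0 to 3 of all genes were called higher and 0 to 11 lower, the 3 and 11 without array 2. Shares of all genes at an unadjusted p were not counted under the alternatives, so the member counts at that threshold support nothing about the family. With 1 anlage array left out the median difference of the members was -0.43 to -0.06. Fewer arrays to lie below raise such counts by construction. Scaling to a common median moved the median of all genes to -0.24, against -0.07.

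Signs changed for Kcnj8 (0.06), Kcnmb1 (0.043) and Kcnip3 (0.11) on the deposited signals and for Kcnj16 (0.041) and Kcnd3 (0.23) with probe set means. With 1 anlage array left out the ranges were -0.025 to 0.52 for Kcnc2, -0.65 to 0.42 for Kcnd3, -0.43 to 0.24 for Kcnmb1, -0.54 to 0.16 for Kcnip3, -0.46 to 0.12 for Kcnj8, -1.34 to 0.68 for Kcnk3 and -0.50 to 0.088 for Kcnh2. Apart from those named, the cause was not tested. No paired analysis was possible because the groups share only 1 replicate number.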
